A study of Mus musculus with 8 samples.

Results

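The nuclear genes for the proteins of the mitochondrial ribosome were taken as every gene entry whose symbol is Mrpl or Mrps followed by a number and at most 1 letter. The rule found 78 of 24619 gene entries, 49 named for the large subunit and 29 named for the small subunit. These genes were followed in mouse glomerular mesangial cells (MMC) of WT mice and of miR-379KO mice, both of the C57BL/6J strain. The miR-379KO mice carry a deletion at miR-379 made with CRISPR-Cas9 nickase, and the primary cultures were grown from sieved glomeruli in RPMI medium with foetal bovine serum and were left untreated. RNA was sequenced as total RNA and as RNA recovered with an AGO2 antibody (AGO2-IP), with 2 libraries (A and B) in each of the 4 groups. The study calls the AGO2-IP libraries A and B independent samples, nothing used here says more of the total RNA libraries, and the p-values below measure the spread between A and B.

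The mitochondrial ribosome makes the few proteins encoded by mitochondrial DNA, all of them subunits of the respiratory chain and ATP synthase. Its RNAs are transcribed in the mitochondrion, whereas its proteins are encoded in the nucleus, translated in the cytosol and imported. Some of its proteins descend from bacterial ribosomal proteins and others were added in the mitochondrial lineage. Loss of single members impairs oxidative phosphorylation, which matters in kidney cells with a high demand for ATP. AGO2 is an Argonaute protein, which binds a microRNA and, guided by it, a target RNA.

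Symbols do not always give the place in the ribosome. Mrps30 and Mrps18a are named for the small subunit but their proteins sit in the large one, and Mrps36 encodes a protein of the 2-oxoglutarate dehydrogenase complex. Mrps18b and Mrps18c are the paralogs of Mrps18a that sit in the small subunit. Mrpl58 encodes a peptidyl-tRNA hydrolase that is also built into the large subunit. Subunits are given by symbol unless stated.

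The sequence that ties these genes to the deleted microRNA is its seed, bases 2 to 8, in capitals in the RefSeq mature sequence.

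mmu-miR-379-5p: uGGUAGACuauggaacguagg

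A match to the seed, GTCTACC, occurred in the longest annotated 3′-UTR of 2 of the 78 genes (2.56%), compared to 776 of 19135 protein-coding entries with a 3′-UTR (4.06%). The median 3′-UTR of these genes was 311.5 bases against 828 bases over protein-coding entries. Whether UTR length bears on the share of matches was not tested. Both matches were in large subunit genes, and the match is in capitals in each stretch below (GRCm38.p6, sense strand of the gene).

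Mrpl41, minus strand, match at chr2:24973888-24973894: ccagtctaGTCTACCtgattcat

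Mrpl1, plus strand, match at chr5:96265572-96265578: acccttctGTCTACCttctctgt

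A match is a description and not a site of regulation. The values of both genes are given with the comparisons below.

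The gene annotation showed a second common feature. A gene on the opposite strand started within 1000 bases upstream of 30 of the 78 genes (38.5%), compared to 2389 of 20581 protein-coding entries (11.6%) and 13 of 81 cytosolic ribosomal protein genes (16.05%). The median distance between the start sites in these pairs was 122 bases. The pairs named next are examples in which both genes serve the same organelle. How many of the 30 partners do so was not counted. Mrps11 and Mrpl46, of the small and the large subunit, start 42 bases apart, and both count among the 30. Mrps12, a protein of the decoding site, starts 147 bases from Sars2, the mitochondrial seryl-tRNA synthetase, and Mrpl43 starts 116 bases from Twnk, the helicase of mitochondrial DNA replication. The stretches between the opposite starts, without annotated exons, are shown in the direction of the first named gene (GRCm38.p6), with the motifs searched in capitals.

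Mrps11 with Mrpl46, chr7:78783090-78783130, plus strand: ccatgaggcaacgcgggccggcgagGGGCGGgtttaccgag

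Mrps12 with Sars2, chr7:28741822-28741956, minus strand: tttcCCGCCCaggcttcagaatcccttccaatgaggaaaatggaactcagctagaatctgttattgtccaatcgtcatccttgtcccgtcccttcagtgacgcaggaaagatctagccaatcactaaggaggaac

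Mrpl43 with Twnk, chr19:45006443-45006557, minus strand: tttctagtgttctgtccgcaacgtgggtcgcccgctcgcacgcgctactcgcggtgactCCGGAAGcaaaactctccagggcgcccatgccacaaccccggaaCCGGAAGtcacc

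RefSeq promoter windows of 300 bases (250 before to 50 after the start) were found for 69 of the 78 genes, 75 windows in all, and were searched on both strands for 5 motifs. The ETS core CCGGAAG was in 26 of the 75 windows (34.7%), against 11.9% of the 20116 windows of protein-coding genes. The letters GCGCATGC, the core of the motif of NRF1, a factor known for nuclear genes of mitochondrial proteins, were in 8 windows (10.7%) against 3.68%. Of these 8 windows, 7 belonged to large subunit genes, and Mrpl32 held 4 overlapping or separate copies. AAGATGG, the core of the YY1 motif, was in 17.3% against 6.33%, the GC box GGGCGG in 52% against 48.1%, and TATAAA in 6.67% against 12.4%. Cytosolic ribosomal protein genes had shares of 35.6% for CCGGAAG, 4.11% for GCGCATGC, 15.1% for AAGATGG, 57.5% for GGGCGG and 9.59% for TATAAA. The median GC content of the windows was 58.7% for the mitochondrial ribosomal protein genes and 57.0% over protein-coding genes.

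The depth of the libraries limits what can be read from each assay. Total RNA libraries held between 17168113 and 22660600 gene counts, and AGO2-IP libraries between 5587494 and 17094958. The 78 genes took 28111 to 49712 counts per total RNA library, with a median gene at 339.5 to 558 counts, but 1365 to 1816 counts per AGO2-IP library, with a median gene at 17 to 22 counts. In AGO2-IP most gene counts came from the ribosomal RNA precursor Rn45s and from Lars2, and without both the libraries held 1115665 to 1874974 counts. Of the mesangial markers, 7 of 8 averaged over 1 CPM in total RNA, with Thy1 at 0 to 3 counts per library. Acta2 (6885 to 10696 CPM) and Tagln (4019 to 6825 CPM) were the highest of them. By contrast, Itga8 was at only 0.383 to 2.27 CPM and Gata3 at 1.97 to 3.76 CPM. The podocyte markers Synpo and Wt1 were also present while Nphs1 was at 0 to 4 counts, and the 4 endothelial markers summed to at most 0.522, the 5 tubular markers to 6.02 to 44.1 and the 4 macrophage markers to 1.79 to 4.16 CPM per total RNA library. The Mir379 entry held 0 counts in the 4 total RNA libraries and 0, 4, 1 and 0 in AGO2-IP (WT A, WT B, miR-379KO A and miR-379KO B), which is too few to check the genotype labels.

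Mitochondrial ribosomal protein mRNAs were moderately abundant. Their median level in WT total RNA was 22.2 RPKM (counts divided by exon length in kilobases and by library size, computed here), above 83.0% of the 16817 genes with a total RNA count. Cytosolic ribosomal protein genes had a median of 549.7 RPKM and nuclear respiratory chain genes a median of 68.2 RPKM, so mRNAs for the mitochondrial ribosome were the lowest of the 3 classes. Large and small subunit genes had similar medians, 22.3 and 20.8 RPKM. Per library, the large subunit median was 17.1 in WT A, 26.6 in WT B, 22.96 in miR-379KO A and 25.4 in miR-379KO B, and the small subunit median was 15.2, 27.4, 20.7 and 22.7 RPKM in the same order. The gap between the subunits was smaller than the gap between WT A and WT B.

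**Figure D1:**
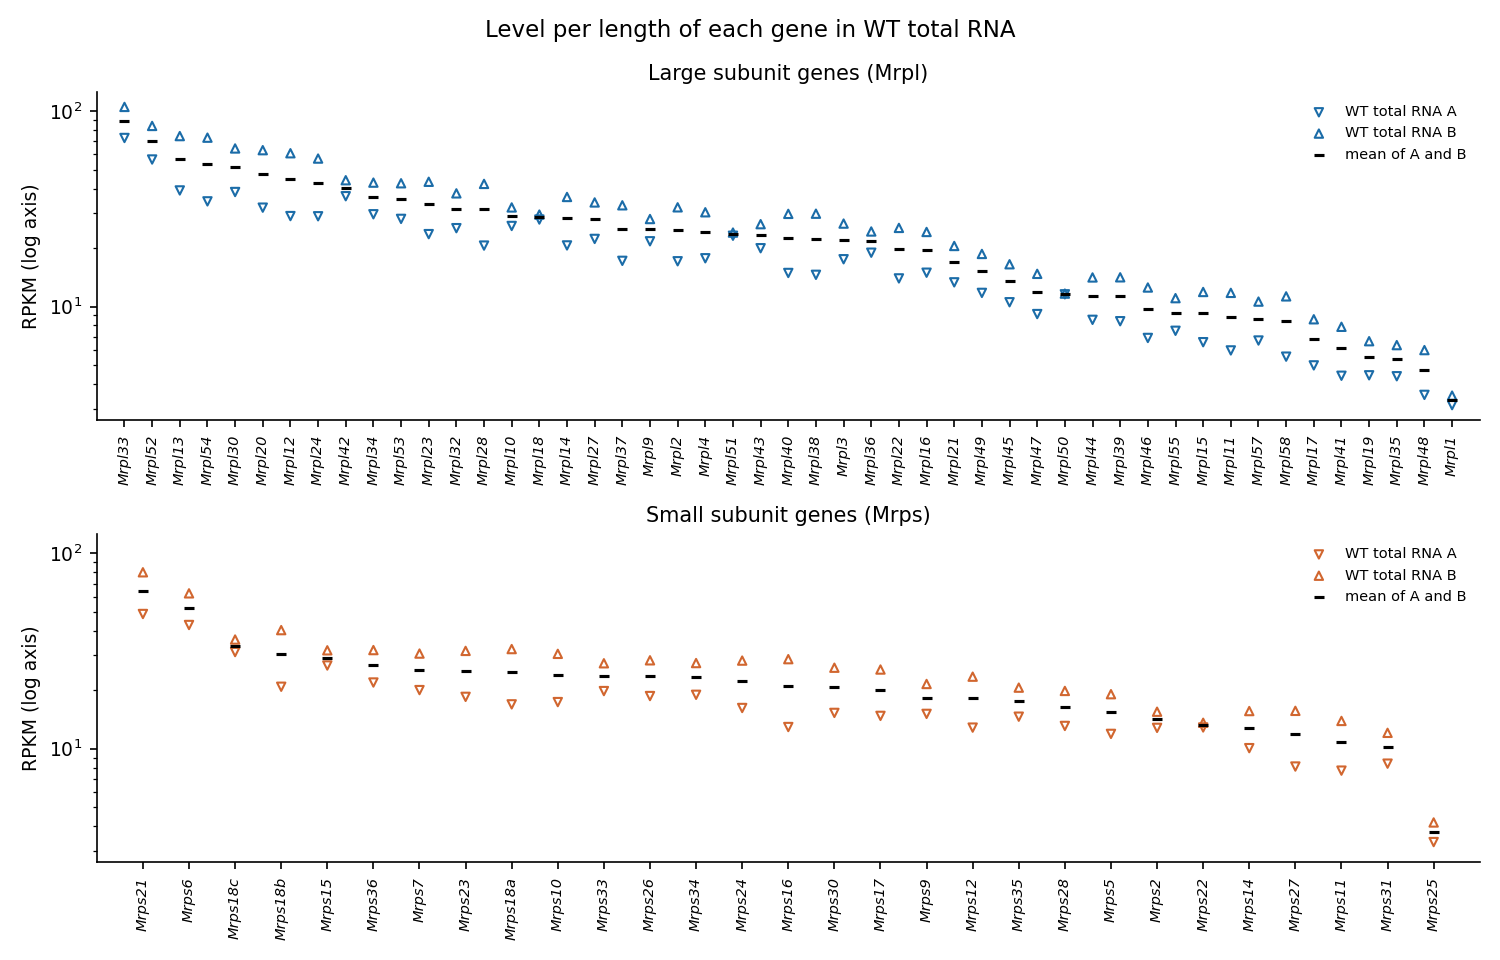
RPKM (log axis) of each of the 49 Mrpl and 29 Mrps genes in WT total RNA A and B, ordered by the mean of both libraries (black bar). Levels run from 89.0 RPKM for Mrpl33 to 3.31 RPKM for Mrpl1, and WT B lies above WT A for nearly every gene.

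Levels of single members spanned 26.8-fold. Among large subunit genes, Mrpl33 was highest, at 72.9 and 105.1 RPKM in WT A and B, 91.4 and 109.1 in miR-379KO A and B. Mrpl52 followed with 70.3 RPKM ± 19.4 (SD, n = 2), then Mrpl13 with 56.9 ± 24.9, Mrpl54 with 53.8 ± 27.3 and Mrpl30 with 51.5 ± 18.3. Mrpl33, Mrpl13 and Mrpl30 have bacterial homologues, whereas Mrpl52 and Mrpl54 are proteins of the mitochondrial lineage. The lowest were Mrpl35 at 5.37 ± 1.38, Mrpl48, a protein of the central protuberance, at 4.76 ± 1.74, and Mrpl1, the protein of the flexible L1 arm, at 3.31 ± 0.262 RPKM.

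Among small subunit genes, Mrps21 was highest, at 48.9 and 79.9 RPKM in WT A and B, 72.6 and 70.6 in miR-379KO A and B. Mrps6 had 52.6 ± 13.7, Mrps18c 33.7 ± 3.52, Mrps18b 30.6 ± 13.9 and Mrps15, a protein of the platform, 29.3 ± 3.70 RPKM (SD, n = 2). The count of Mrps6 is uncertain because its annotated exons overlap those of Slc5a3 on the same strand. Mrps11 (10.8 ± 4.35), Mrps31 (10.2 ± 2.60) and Mrps25 (3.76 ± 0.611) were lowest. In WT cells Mrps18a and Mrps30, of the large subunit by place, had 24.6 ± 10.9 and 20.6 ± 7.58 RPKM, and Mrps36, which is no ribosomal protein, had 26.9 ± 7.18.

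Neighbours in the order of levels were not separated by the replicates. For 77 of 77 neighbouring pairs the ranges of WT A and WT B overlapped, although the order itself was alike in both libraries (Spearman's rho of 0.94 across the 78 genes) and between the genotype means (0.99). Across the same genes the level per length was lower where the annotated exons were longer (rho of -0.74), and RPKM divides by that length, so the 2 measures share it. Genes at the low end, such as Mrpl1 with 4188 bases and Mrps25 with 6076 bases of annotated exon, are understated if long annotated ends are not transcribed in these cells.

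The ratio of large to small subunit counts was nearly constant over libraries. It was 1.91 in WT A, 1.98 in WT B, 1.93 in miR-379KO A and 2.02 in miR-379KO B in total RNA, and 1.84, 2.10, 1.86 and 2.06 in AGO2-IP. The genotypes overlapped in both assays, and in both the B libraries had the higher ratio.

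The comparison of total RNA between genotypes asked whether the amount of these mRNAs differs in miR-379KO MMC. In edgeR's quasi-likelihood test, 0 of 78 genes passed an adjusted p of 0.05, 0 had an unadjusted p under 0.05, and DESeq2 also called 0. The same test called 0 (0%) of the 12318 genes tested, and 0.739% of them had an unadjusted p under 0.05. The fitted value was above 0 for 73 of 78 genes, against 6004 of the 12318 genes tested. The median log2 fold change was 0.20 for the large and 0.19 for the small subunit, against -0.01 over all genes tested. These medians were smaller than the spread between replicates of each library's median CPM. That spread was 0.30 on the log2 scale for the large subunit and 0.31 for the small subunit (pooled within-group SD of library medians). In bulk RNA, fewer cells and less RNA per cell cannot be told apart.

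The libraries did not contribute equally. WT A was the lowest of the 4 libraries for 70 of the 78 genes (89.7%), against 34.9% of all genes tested, and miR-379KO B was the highest for 52. The summed large subunit signal was 1100 CPM in WT A, 1648 in WT B, 1423 in miR-379KO A and 1753 in miR-379KO B (CPM, counts scaled to library size with TMM factors). The summed small subunit signal was 576.4, 832.8, 738.9 and 866.5 CPM in the same order. Thus WT B lay between the miR-379KO libraries for both subunits, and only WT A lay below them.

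**Figure D2:**
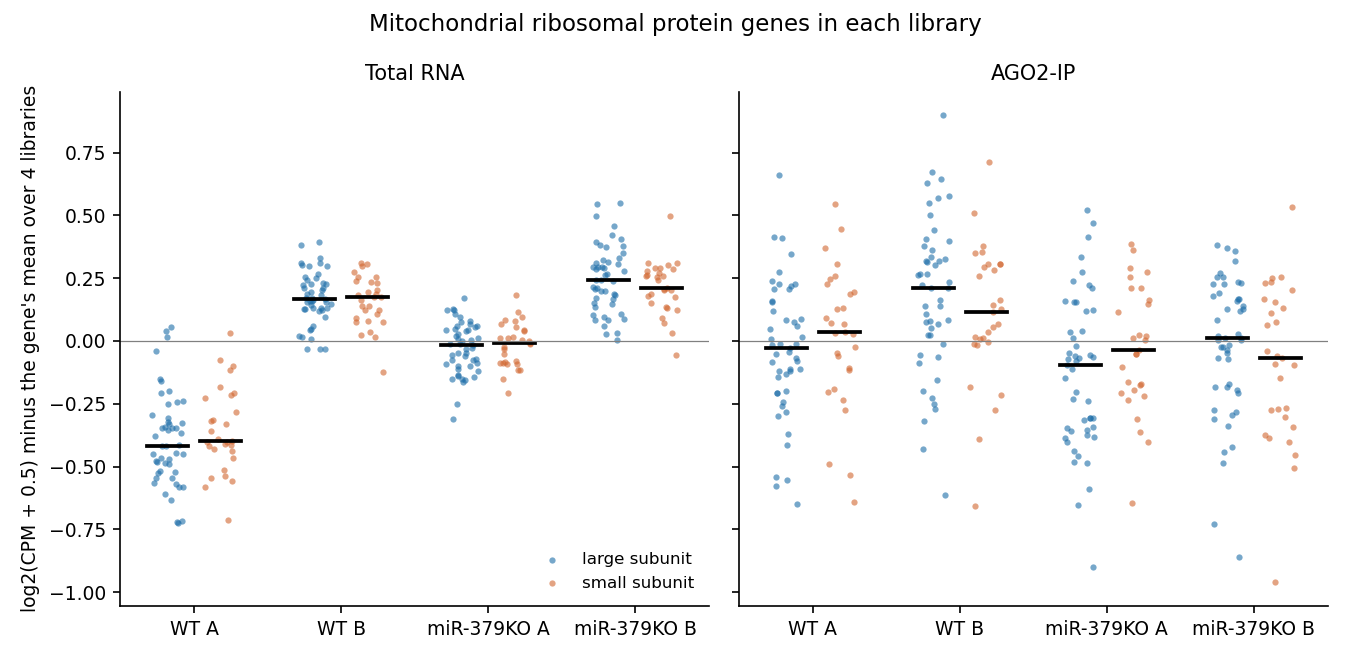
Each point is 1 gene, as log2(CPM + 0.5) minus its mean over the 4 libraries of the assay, with large subunit genes in blue, small subunit genes in orange and medians as black bars. In total RNA the points of WT A sit below those of the other 3 libraries for both subunits, and in AGO2-IP the 4 libraries overlap broadly.

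WT B exceeded WT A for 74 of the 78 genes, by a median log2 ratio of 0.55, and miR-379KO B exceeded miR-379KO A for 74 of 78, by 0.24. The difference between replicates of a genotype was therefore as large as or larger than the difference between genotypes. Without WT A the medians were -0.04 (large) and -0.10 (small), and without WT B they were 0.55 and 0.51, with 25 genes at an unadjusted p under 0.05 and 0 called. Without miR-379KO A the large subunit median was 0.38, and without miR-379KO B it was 0.08. With an offset for exon length and GC content the medians were 0.11 and 0.08. WT A also stood lowest for 98.7% of cytosolic ribosomal protein genes and 90.5% of nuclear respiratory chain genes tested. Of 1198 other protein-coding genes with a level and exon length within the 10th to 90th percentile of the 78 genes, WT A was lowest for 63.1%. The fitted genotype difference was above 0 for 882 of these 1198 genes. The part of WT A in the genotype difference was measured only by leaving it out.

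miR-379KO libraries lay above both WT libraries without overlap for 6 of 78 genes (7.69%) and below for 1 (1.28%), against 9.9% and 9.07% of all genes tested. Both shares were near or below those of the background. Mrps6 had 575 (A) and 846 (B) counts in the WT libraries against 1134 and 932 in miR-379KO, with a log2 fold change of 0.37 ± 0.24 (SE, adjusted p = 0.9997, edgeR). Mrpl55, a protein of the mitochondrial lineage, had 133 and 198 counts in the WT libraries against 271 and 226 in miR-379KO (0.42 ± 0.28). Mrpl41, with the seed match, had 184 and 332 counts in the WT libraries against 432 and 348 in miR-379KO (0.43 ± 0.30). These were the 3 smallest p-values among genes above 0, unadjusted 0.173, 0.184 and 0.204, and none passed.

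The 3 smallest p-values among genes below 0 belonged to Mrps18c, Mrpl47 of the exit tunnel rim and Mrpl18 of the central protuberance. Mrps18c had 269 and 316 counts in the WT libraries against 311 and 273 in miR-379KO, with a log2 fold change of -0.17 ± 0.23. Mrpl47 and Mrpl18 had -0.10 ± 0.31 and -0.05 ± 0.24. Mrpl1, the other gene with the seed match, had 225 and 255 counts in the WT libraries against 286 and 265 in miR-379KO, with 0.03 ± 0.25. The genes with an altered place were alike, with 0.25 ± 0.32 for Mrps18a, 0.12 ± 0.28 for Mrps30 and 0.27 ± 0.25 for Mrps36.

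No functional region of the ribosome stood apart in total RNA. Median log2 fold changes were 0.23 for 5 proteins of the catalytic core, 0.23 for 7 of the central protuberance, 0.20 for 3 of the stalk that recruits translation factors, and 0.13 for 8 of the exit tunnel. In the small subunit they were 0.19 for 4 proteins of decoding and mRNA entry, 0.25 for 6 of the head and 0.19 for 7 of the body and platform. The 45 genes with a bacterial homologue had a median of 0.20 and the 32 of the mitochondrial lineage 0.19. None of these genes passed the test. The other genes of mitochondrial translation in the list (5 ribosomal proteins with other names, 15 translation factors and 23 assembly factors) had a median of 0.09, and 0 of 43 passed. Cytosolic ribosomal protein genes had a median of 0.27 and nuclear respiratory chain genes 0.22, with 0 called in either.

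The comparison of AGO2-IP between genotypes asked whether less of these mRNAs was held by AGO2 when miR-379 is missing. Of 78 genes, 73 passed the filter on low counts, and 1, Mrpl35, was called higher, whereas 0 were called lower. Over all 13500 genes tested, 21.4% were called higher and 9.42% lower. At an unadjusted p under 0.05 there were 2 genes above and 4 below 0, and DESeq2 called 0. Mrpl55, Mrpl41, Mrps35, Mrpl46 and Mrps11 were not tested, with 5 to 20 counts per library.

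Mrpl35, a large subunit protein with a bacterial homologue, had 28 (A) and 18 (B) counts in the WT libraries against 44 and 36 in miR-379KO. Both miR-379KO libraries lay above both WT libraries, and the log2 fold change was 1.01 ± 0.32 (SE, adjusted p = 0.0204, edgeR's quasi-likelihood test). The call was lost without WT B (adjusted p = 0.144), without miR-379KO A (0.146), without miR-379KO B (0.0994), in DESeq2 (0.213) and with the offset for GC content and exon length (0.195). It was also lost with all 8 libraries in one model (0.102) and without a filter on low counts (0.0641). Over all alternatives its log2 fold change ran from 0.56 to 1.17. Mrpl35 has 3695 bases of annotated exon on the minus strand of chr6:71812997-71823784.

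Mrpl1 had 21 and 29 counts in the WT libraries against 43 and 33 in miR-379KO, with a log2 fold change of 0.79 ± 0.33 (adjusted p = 0.0689, edgeR), higher in both miR-379KO libraries. Mrpl41, untested, had 20 and 11 counts in the WT libraries against 7 and 12 in miR-379KO. In CPM the genotypes of Mrpl41 overlapped, so no side can be given for it. Mrpl1 was called higher with TMM factors from genes in total RNA (adjusted p = 0.038, edgeR) and without WT B (0.0409). Mrpl19 and Mrpl48 completed the 3 smallest p-values above 0 that did not pass, with 0.43 ± 0.32 and 0.49 ± 0.39.

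Below 0, Mrpl37, a protein of the mitochondrial lineage, came closest to the threshold. It had 43 and 45 counts in the WT libraries against 22 and 21 in miR-379KO, with a log2 fold change of -0.83 ± 0.32 (adjusted p = 0.0504, edgeR). Mrpl34 had 25 and 21 counts in the WT libraries against 10 and 9 in miR-379KO (-1.06 ± 0.42, adjusted p = 0.0568, edgeR). Mrps18b had 26 and 38 counts in the WT libraries against 12 and 18 in miR-379KO (-0.89 ± 0.39, adjusted p = 0.0815, edgeR). WT and miR-379KO libraries did not overlap for these 3 genes, in counts or in CPM. Mrpl12, the stalk protein also known to bind mitochondrial RNA polymerase, had 25 and 46 counts in the WT libraries against 10 and 22 in miR-379KO (-0.95 ± 0.44, adjusted p = 0.109, edgeR). Scaled to library size, WT A (2.45 CPM) lay below miR-379KO B (2.81 CPM), so the genotypes of Mrpl12 overlapped.

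The paralogs of Mrps18 differed in value but not by a test of their own. Mrps18c had 16 and 15 counts in the WT libraries against 15 and 15 in miR-379KO (0.16 ± 0.41), Mrps18a had 13 and 18, then 19 and 8 (-0.01 ± 0.47). Mrps30 had 38 and 27 counts in the WT libraries against 23 and 23 in miR-379KO (-0.28 ± 0.33), and Mrps36 had 12 and 13, then 11 and 14 (0.20 ± 0.45). In CPM the genotypes overlapped for Mrps18a and Mrps36 and not for Mrps18c and Mrps30, and none passed.

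Large and small subunit genes could not be separated in AGO2-IP. The median log2 fold change was -0.23 for 46 large and -0.03 for 27 small subunit genes, against -0.01 over all genes. The summed large subunit signal was 115.1 and 139.8 CPM in WT A and B, 110 and 117.5 in miR-379KO A and B. The summed small subunit signal was 62.7, 66.6, 59.0 and 57.0 CPM in the same order. The genotypes overlapped in the large subunit sum and not in the small subunit sum, and neither sum was tested. Library medians of CPM over all 49 and 29 genes spread by 0.15 and 0.07 between replicates (log2 scale, pooled within-group SD). Single genes spread further, with log2 ratios of WT B over WT A from -0.91 to 1.04. The order of the subunits' median fold changes turned without miR-379KO A, when the medians were -0.23 and -0.27. The large subunit median became 0.06 and the small one 0.13 with the offset for GC content and exon length. With Mrps30 and Mrps18a moved to the large subunit and Mrps36 left out, the medians were -0.23 (48 genes) and -0.03 (24 genes). miR-379KO lay above WT without overlap for 10 of the 73 genes (13.7%) and below for 22 (30.1%), compared to 36.1% and 32.2% of all genes tested. The 1180 genes of like level and length had a median of -0.24, and 7.63% of them were called lower.

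By region, the medians were -0.60 for 3 decoding and mRNA entry proteins, -0.58 for 3 stalk proteins, -0.28 for 5 of the central protuberance, -0.19 for 5 of the catalytic core, -0.19 for 6 of the body and platform, -0.10 for 6 of the head and 0.03 for 8 of the exit tunnel. No gene of these regions was called. Among the other genes of mitochondrial translation, 38 of 43 were tested, with a median of -0.01. Of these 38, 1 was called higher and 3 lower, against 21.4% and 9.42% of all genes tested. Gtpbp10, a GTPase of large subunit assembly, was called higher (log2 fold change of 1.34, adjusted p = 0.00452, edgeR). Tufm, the elongation factor that brings tRNA (-0.96, 0.0233), Mettl17, which acts in small subunit assembly (-1.21, 0.0315), and Rbfa, a maturation factor of the small subunit RNA (-1.30, 0.0311), were called lower. Counts in WT A, WT B, miR-379KO A and miR-379KO B were 17, 27, 56 and 42 for Gtpbp10 and 53, 67, 35 and 19 for Tufm. In the same order they were 34, 20, 8 and 12 for Mettl17 and 22, 21, 9 and 6 for Rbfa. Alternative settings are not given for these calls. Cytosolic ribosomal protein genes had a median of -0.59 and nuclear respiratory chain genes one of -0.59.

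**Figure D3:**
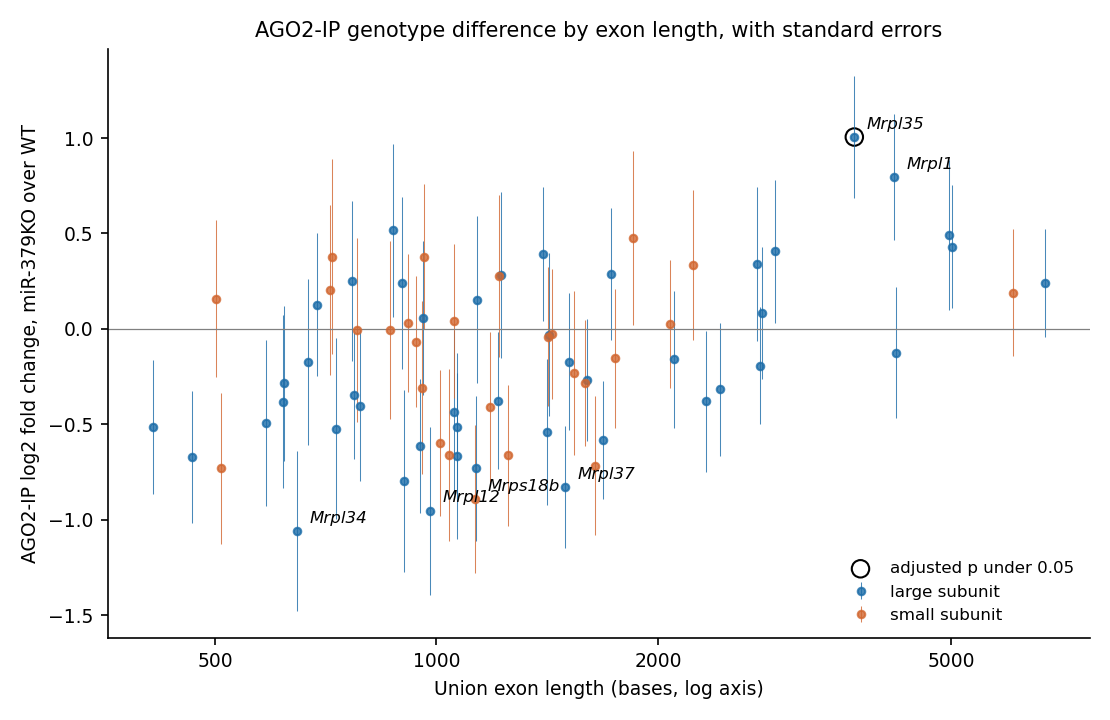
Log2 fold change of miR-379KO over WT in AGO2-IP (with its standard error) against the union exon length in bases (log axis) for the 73 genes tested, large subunit in blue and small subunit in orange. The circled gene, Mrpl35, is the one called, and it lies with Mrpl1 among genes of long exons, while Mrpl34, Mrpl12, Mrps18b and Mrpl37 lie at shorter lengths.

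The AGO2-IP difference moved with exon length. Across the 73 genes the log2 fold change and the log2 exon length had a Pearson's r of 0.43 and a Spearman's rho of 0.34, a description over genes that share the same 4 libraries and their background. Over all 13471 tested genes with a length, both were low (0.10 and 0.14). The 26 shortest genes (412 to 959 bases) had a median of -0.23, the 22 tested of middle length (962 to 1496 bases) one of -0.42, and the 25 longest tested (1515 to 6712 bases) one of 0.02. In total RNA the same correlation was 0.02 (Pearson) over 78 genes.

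Reads from genes without a total RNA count differed between the AGO2-IP genotypes. Protein-coding genes without a count in any total RNA library (5193 genes) held 1.35 and 0.913 counts per kilobase in WT A and B, 3.08 and 3.52 in miR-379KO A and B. A uniform background of this height equals 9.23% and 6.35% of the summed counts of the 78 genes in WT, and 26.6% and 32.0% in miR-379KO. For Mrpl35 it equals 4.99 and 3.38 counts in WT, 11.4 and 13.0 in miR-379KO, and its log2 ratio of mean CPM went from 1.02 to 0.78 when these were subtracted. For Mrpl1 the background equals 5.65 and 3.83 counts in WT, 12.9 and 14.7 in miR-379KO, and the ratio went from 0.78 to 0.41. For Mrpl37 the ratio went from -0.84 to -1.16. After subtraction the medians over the subunits were -0.58 (large) and -0.30 (small), with no test.

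The contrast of the AGO2-IP difference with the total RNA difference asked whether AGO2 association differed beyond the amount of mRNA. edgeR called 0 of 78 genes and 0 (0%) of the 17421 genes tested, and DESeq2 called 0 members too. At an unadjusted p under 0.05 there were 8 genes, all below 0, or 10.3% of the 78 against 10.9% of all genes tested. That count rested on single libraries, as the number below 0 was 44 without WT total RNA B, 1 without WT total RNA A, and 2 without WT AGO2-IP B, without miR-379KO AGO2-IP A, without miR-379KO AGO2-IP B or without miR-379KO total RNA B. The medians were -0.67 (large) and -0.48 (small) against 0.01 over all genes, and -0.56 for genes of like level and length. They moved to -1.10 and -0.95 without WT total RNA B, to -0.33 and -0.22 without WT total RNA A, to -0.29 and -0.12 without WT AGO2-IP B, to -0.31 and -0.38 without miR-379KO AGO2-IP A, and to -0.39 and -0.13 without miR-379KO AGO2-IP B. With a mean of at least 50 counts they were -0.28 and -0.10. Mrpl34 (-1.42 ± 0.48), Mrpl37 (-1.19 ± 0.48) and Mrpl33 (-1.10 ± 0.46) had the smallest p-values below 0, unadjusted 0.00941, 0.0245 and 0.0294. Mrpl35 (0.74 ± 0.44), Mrpl1 (0.55 ± 0.45) and Mrpl47 (0.41 ± 0.60) had the smallest above 0. Without WT total RNA B the median over all genes tested was -0.11.

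AGO2-IP set against total RNA of the same genotype describes how much of each mRNA was recovered by AGO2 relative to its amount. In WT MMC 35 of 78 genes were called lower at a 2-fold difference, 23 of the large and 12 of the small subunit, and 0 were called higher. Over all 17421 genes 7.31% were called lower and 35.7% higher, and of the 1198 genes of like level and length 19.1% were called lower. In miR-379KO MMC 65 of 78 were called lower, 43 of the large and 22 of the small subunit, against 19.3% lower and 41.6% higher over all genes and 55.3% lower among genes of like level and length. With these settings no gene was called higher by edgeR, and DESeq2 called none higher either, whereas with a mean of at least 50 counts edgeR called Mrpl1 higher in miR-379KO. With the filter of the other tests, 1 had an unadjusted p under 0.05 above 0 in miR-379KO (Mrpl1) and 0 did in WT.

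**Figure D4:**
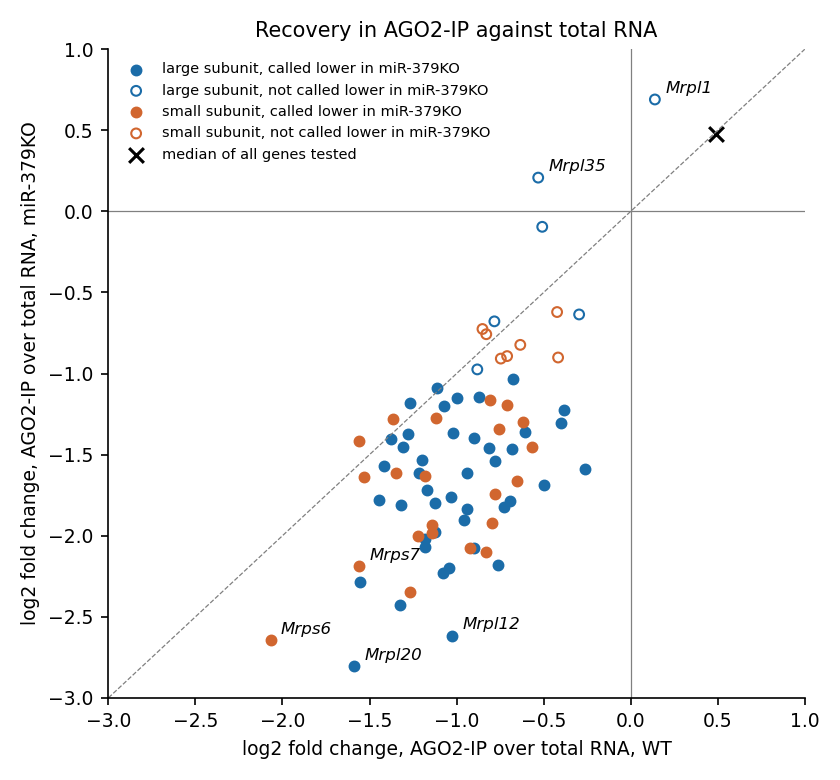
Log2 fold change of AGO2-IP over total RNA in WT (x axis) and in miR-379KO (y axis) for the 78 genes, large subunit in blue and small subunit in orange, filled where called lower in miR-379KO. The cross marks the median of all genes tested, at 0.49 and 0.47, and nearly all of the 78 genes lie below and to the left of it, most of them under the dashed line of equal values.

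Median log2 fold changes in WT were -0.995 (large) and -0.83 (small), and in miR-379KO -1.57 and -1.46. Mrps6 had 575 and 846 counts in WT total RNA but 10 and 22 in WT AGO2-IP, the lowest recovery in WT (-2.07 ± 0.38, adjusted p = 0.00038, edgeR). Mrpl20 (-1.59 ± 0.36) and Mrps7, a head protein that binds the small subunit RNA (-1.56 ± 0.32), followed. In miR-379KO the lowest were Mrpl20 (-2.80 ± 0.39), Mrps6 (-2.65 ± 0.39) and Mrpl12 (-2.62 ± 0.58). In total RNA the Mrpl20 counts were 622 and 1241 (WT) and 1361 and 1190 (miR-379KO), against 24, 35, 16 and 15 counts in the AGO2-IP libraries.

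Mrpl1 stood at the other end. Its log2 fold change was 0.14 ± 0.33 in WT and 0.69 ± 0.31 in miR-379KO (adjusted p = 0.0597, edgeR), followed in miR-379KO by Mrpl35 at 0.21 ± 0.30. With the offset for GC content and exon length both turned negative, at -1.57 for Mrpl1 and -0.99 for Mrpl35 in miR-379KO. All 5 catalytic core genes (Mrpl2, Mrpl3, Mrpl4, Mrpl16 and Mrpl27) were called lower in both genotypes, with medians of -1.18 and -1.78. Of the other genes of mitochondrial translation, 5 of 43 were called lower and 2 higher in WT, and 12 lower and 2 higher in miR-379KO. Guf1, a translation GTPase, was called higher in both (1.63 and 1.72), whereas Mrrf, the ribosome recycling factor, was called lower in both (-1.32 and -1.35). Cytosolic ribosomal protein genes had medians of -1.29 in WT and -2.25 in miR-379KO.

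The WT count rested on single libraries, as it was 9 without WT total RNA B, 62 without WT total RNA A, 57 without WT AGO2-IP B, 54 without miR-379KO AGO2-IP A and 52 without miR-379KO AGO2-IP B. Values below 0 were shared by 77 of 78 genes in WT and 76 of 78 in miR-379KO. Among the 1198 genes of like level and length, 994 in WT and 1141 in miR-379KO were below 0. Over all 17421 genes tested the numbers were 6302 and 7236. The difference between genotypes in the number of genes called was tested only by the contrast above, in which 0 genes passed. Total RNA was prepared with a poly(A) kit and read from 1 end, and AGO2-IP RNA was sonicated and read from both ends, so assay and library preparation cannot be told apart.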

How the data were processed

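Values were whole-read counts per gene as the authors deposited them, 1 list per library, without normalization. TopHat placed the reads on mm10 and HTSeq 0.6.0, run by the authors in reverse-stranded mode, counted them on RefSeq genes, and the submitters' processing notes also name Bowtie2 2.1.0.1. Total RNA libraries came from a stranded poly(A) kit, AGO2-IP RNA from sonicated lysates of cells exposed to UV light. Genes with close copies are uncertain, as are Mrps6, Mrps23 and Mrpl53, whose exons overlap another gene on the same strand. Reads assigned to no gene (19.8% to 23.8% of listed reads in total RNA and 73.1% to 88.9% in AGO2-IP), and 20 entries with a chromosome but no gene name (at most 0.000635%), were left out of library sizes and tests.

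Counts were fitted in edgeR 4.0.16 (R 4.3.3) with TMM factors, filterByExpr (minimum count of 10) and a robust quasi-likelihood F test, over all genes of the 4 libraries of an assay, or of all 8 libraries for contrasts between assays. Calls required a Benjamini-Hochberg adjusted p under 0.05, and a 2-fold difference for AGO2-IP against total RNA. All 78 genes matched RefSeq GRCm38.p6 for exon length and position. RPKM used union exon length and all gene counts. Alternatives were DESeq2 1.42.0, RLE factors, TMM from genes detected in every total RNA library, an offset for GC content and length, other filters, all 8 libraries in one fit, a block for the replicate letter, the study's cutoff (1.5-fold with an unadjusted p under 0.05), subtraction of background and omission of each library.

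Replicates differed beyond sampling noise (chi-square per degree of freedom of 3.51 to 119).

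Genes named are those with the smallest p-values or largest called differences per comparison, the 5 highest and 3 lowest levels per subunit, and Mrpl12, Mrps30, Mrps36 and the Mrps18 paralogs. Mrpl41, Mrpl1, paired genes and those lost or gained in alternatives were named after their values were seen. The genes, lists and rules were chosen with earlier results of these data known.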

Additional observations from a re-analysis of the deposited data

How the results depend on the processing

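In total RNA, 0 of the 78 genes were called under every alternative run, and the medians ranged from -0.043 to 0.55 (large) and from -0.097 to 0.51 (small) when single libraries were left out, the lowest without WT A and the highest without WT B. In AGO2-IP the number called was 6 (2 higher, 4 lower) at the study's cutoff, 0 in DESeq2, 2 with the GC and length offset (Mrpl4 and Mrps26, both higher), 3 with RLE factors, 2 with TMM factors from genes in total RNA, 0 with all 8 libraries in one fit, 7 lower without a count filter, and 1 to 6 with single libraries left out, the most without WT A. With a mean of at least 50 counts no gene of the 78 was left. The share of all genes called is not given for the alternative settings, so these numbers of calls have no background beside them. The AGO2-IP medians (large, small) were 0.059 and 0.13 with the offset, 0.044 and 0.13 with the replicate block and the offset, -0.10 and 0.11 with TMM factors from genes in total RNA (which moved the median of all genes to 0.12), -0.44 and -0.20 with all 8 libraries, -0.50 and -0.26 without a filter (all genes 0.36), -0.58 and -0.30 after background subtraction, and between -0.38 and -0.21 (large) and -0.27 and -0.063 (small) with single libraries left out. Libraries of the same letter in the 2 genotypes of an assay were not taken as pairs. Their deviations from the group means correlated at -0.069 over 10762 genes in total RNA and 0.038 over 4971 genes in AGO2-IP. These correlations do not show whether total RNA and AGO2-IP libraries of one letter share a culture. A block for each culture was fitted for the contrast between assays and not for recovery. With the replicate block alone 2 genes were called (Mrpl35 higher, Mrpl12 lower), 0 in total RNA, the block moved the number of genes at an unadjusted p under 0.05 in the contrast between assays from 8 to 16 (all below 0, 0 called; 22 with a block for each culture), and it changed no other number of calls by over 1.5 times.

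The contrast between assays called 0 to 15 genes with single libraries left out, the most without WT total RNA B, and 4 with a block for each culture (Mrpl12, Mrpl20, Mrpl37 and Mrps18b, all lower). RLE factors, DESeq2 and TMM factors from genes in total RNA moved the median of all genes in that contrast to 0.28, 0.28 and 0.29. Recovery in AGO2-IP was called lower for 21 genes in WT with a mean of at least 50 counts (41 called in miR-379KO, 1 of them higher), and for 9 to 62 in WT with single libraries left out. Directions turned for Mrpl18 in total RNA (0.011 with all 8 libraries, and -0.28 to 0.18 with single libraries left out, positive without miR-379KO A) and Mrpl47 (-0.35 to 0.22, positive without WT B and without miR-379KO A). In the contrast they turned for Mrpl1 (-0.20 with the offset and -0.20 with block and offset) and Mrpl47 (-0.0040 with block and offset, and -0.056 to 1.22 with single libraries left out, negative without WT total RNA B). In recovery they turned for Mrpl1 in WT (-1.37 with the offset, -1.36 with block and offset, -0.027 with TMM from genes in total RNA, and -0.56 to 0.25 with single libraries left out), for Mrpl1 in miR-379KO (-1.57 and -1.56) and for Mrpl35 in miR-379KO (-0.99 with either offset). The causes were not tested. Where 1 library was left, it was assumed to vary like the other group. AGO2-IP counts of 4 to 50 per gene limit that assay to large differences.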
